A study of Mus musculus with 18 samples.

Results

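Genes of the enterochromaffin cell, the enteroendocrine cell (EEC) type that makes serotonin, were followed in RNA-Seq of small intestinal crypts. The 9 genes were fixed by name as Tph1, Ddc, Slc18a1, Chga, Chgb, Fev, Lmx1a, Tac1 and Trpa1, and each matched 1 row of the 55335 rows in the count table. All 9 passed the filter on low counts and were among the 21349 genes tested. Crypts, the epithelial pockets that house stem and progenitor cells, came from mice aged 8 to 12 weeks whose Prmt1 gene carries LoxP sites. Prmt1 encodes the main enzyme that places asymmetric dimethyl marks on arginine. KO mice had in addition a tamoxifen-activated Cre (CreERT2) driven by the villin promoter, which is active in intestinal epithelium, whereas WT mice were littermates with the LoxP sites and no Cre. Both genotypes received tamoxifen at 2 mg per injection. Mice collected at day 2 after the first injection had received 2 injections, and mice collected at days 7 and 14 had received 5. Each of the 6 groups (KO and WT at days 2, 7 and 14) held 3 libraries, each from 1 mouse, giving 18 libraries. No untreated mice and no mice with Cre but without LoxP sites were among these samples, so effects of tamoxifen-activated Cre itself cannot be told apart from those of the Prmt1 deletion.

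Enterochromaffin cells store most of the body's serotonin and release it in response to chemical and mechanical stimuli in the gut. Serotonin is made from tryptophan by tryptophan hydroxylase, of which Tph1 is the form of gut epithelium, followed by the decarboxylase Ddc. The vesicular monoamine transporter Slc18a1 loads it into granules whose matrix contains the chromogranins Chga and Chgb. Fev and Lmx1a are transcription factors of serotonin-producing cells. Tac1 encodes the precursor of substance P, a peptide that many enterochromaffin cells co-express, and Trpa1 is a cation channel that senses irritants. Chga, Chgb and the lineage factors are also used by other EECs, and Ddc is also present in absorptive enterocytes.

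Total counts ranged from 12844642 to 31493484 per library. Prmt1 had 14.4 ± 1.36 CPM (counts scaled to library size by the TMM method; SD, n = 3) in KO against 26.6 ± 0.52 in WT at day 2, 15.8 ± 1.99 against 23.8 ± 1.93 at day 7 and 15.4 ± 0.639 against 25.3 ± 5.20 at day 14. The fall passed the quasi-likelihood F test of edgeR on each day (p adjusted over all tested genes by Benjamini-Hochberg = 0.0264, 0.00675 and 0.00329), so the genotype labels were borne out, with Prmt1 transcripts still counted in KO libraries. In bulk crypts, these counts alone cannot tell a larger number of enterochromaffin cells apart from more RNA per cell. By staining of sections, the study itself reports more serotonin-positive and more chromogranin A-positive cells in KO small intestine at day 14. Its test there took sections rather than mice as samples. It also reports higher Tph1 by RT-qPCR at that day.

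Of the 9 genes, the largest KO increases were those of Tph1, and the level of Chga, the general EEC granule protein, is used below as a yardstick. The 250 bases in front of their RefSeq start sites (build GRCm38.p6) are shown because these genes rose together. Capitals mark each CANNTG (E-box, the core bound by basic helix-loop-helix factors such as Neurog3 and Neurod1) and each TGACG or its complement CGTCA (the core of the cAMP response element). The first Tph1 start lies at the outer end of the gene as counted, and the second lies within its span. The windows are chr7:46672538-46672787 and chr7:46667378-46667627 for Tph1 (minus strand), and chr12:102554691-102554940 for Chga (plus strand).
Tph1, first start site: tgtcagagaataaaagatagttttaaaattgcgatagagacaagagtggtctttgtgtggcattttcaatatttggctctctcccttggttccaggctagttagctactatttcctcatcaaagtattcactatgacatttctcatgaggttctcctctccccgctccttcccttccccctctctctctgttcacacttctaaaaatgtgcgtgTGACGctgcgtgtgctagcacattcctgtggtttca
Tph1, second start site: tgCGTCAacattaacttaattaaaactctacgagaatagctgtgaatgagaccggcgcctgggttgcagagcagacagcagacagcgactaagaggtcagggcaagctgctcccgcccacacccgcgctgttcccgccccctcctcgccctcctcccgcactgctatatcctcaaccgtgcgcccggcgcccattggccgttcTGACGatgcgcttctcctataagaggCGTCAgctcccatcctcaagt
Chga: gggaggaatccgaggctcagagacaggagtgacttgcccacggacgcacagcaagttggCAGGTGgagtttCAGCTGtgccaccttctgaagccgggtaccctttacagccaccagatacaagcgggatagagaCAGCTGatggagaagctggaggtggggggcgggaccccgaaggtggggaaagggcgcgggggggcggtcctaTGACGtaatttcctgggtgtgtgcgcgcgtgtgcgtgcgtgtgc

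The Chga window held 3 E-boxes, 191, 179 and 116 bases before the start, and 1 TGACG at 44 bases. Both Tph1 windows held no E-box. The 5-letter core of the cAMP response element, on either strand, stood 36 bases before the first Tph1 start, and 248, 47 and 21 bases before the second. On either strand, TGACG occurred in 17.8% and CANNTG in 66.2% of all 32851 promoter windows of the same length, and the full element TGACGTCA in 1.55%. RefSeq entries were found for 7 of the 9 genes, without Slc18a1 and Trpa1. These letters are a description of the windows and no binding was measured.

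At day 2 none of the 9 genes passed the test. The background was low, with 0.0328% of the 21349 tested genes called (7 genes). No member reached an unadjusted p under 0.05, every adjusted p was 0.999, and DESeq2's Wald test likewise called 0. The log2 fold changes lay between -0.29 and 0.14, with a median of -0.13 against -0.00 over all tested genes. KO and WT libraries overlapped for every one of the 9 genes, where 4.30% of tested genes had all KO above all WT libraries and 3.86% all below.

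At day 7, 6 of the 9 genes rose in KO crypts and none fell. By the same test 7.11% of all tested genes rose, 10.2% fell and 17.3% were called in either direction. The 6 were Tph1, Ddc, Chga, Chgb, Lmx1a and Tac1. At day 14, 7 of the 9 rose and none fell, where 3.23% of tested genes rose, 4.69% fell and 7.92% were called in all. These were Tph1, Chga, Chgb, Fev, Lmx1a, Tac1 and Trpa1. The study itself reports Tph1, Tac1, Chga, Chgb, Fev and Lmx1a as higher in these same day 14 libraries, so their direction at that day is not independent evidence. The median log2 fold change of the 9 genes was 0.85 at day 7 and 1.42 at day 14, against 0.02 and 0.00 over all tested genes. All KO libraries lay above all WT libraries for 8 of the 9 genes at day 7 (Slc18a1 was the exception) and for 8 at day 14 (Ddc was the exception), where this held for 15.9% and 12.4% of tested genes. With 3 libraries against 3, an exact permutation test cannot go below 0.1, the value that each of these separated genes had.

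Markers of Paneth and stem cells fell at day 7, when 6 of the 9 genes rose. All 8 Paneth cell genes were lower in KO at day 7 (median -1.92 on the log2 scale), and their sum was 9442 to 15955 CPM in WT and 1518 to 4192 CPM in KO. Among them, Lyz1, the lysozyme of Paneth cell granules, fell by 1.80 ± 0.38 (edgeR's quasi-likelihood test, adjusted p = 0.00303). The others were Mmp7, Itln1, Ang4, Pla2g2a and the defensins Defa17, Defa22 and Defa24, whose near-identical copies make their counts uncertain, at -2.27 to -1.31. At day 14, 1 of the 8 (Ang4) passed the test as lower, with a list median of -1.19 and sums of 9781 to 21986 CPM in WT and 5955 to 7822 CPM in KO. Of 6 stem cell genes 4 (Lgr5, Olfm4, Smoc2 and Rnf43) fell at day 7 (median -1.04), with sums of 1307 to 1712 CPM in WT and 332 to 844 CPM in KO, and 1 (Smoc2) fell at day 14 (median -0.31), with 1579 to 1772 CPM in WT and 1249 to 1483 CPM in KO. Lgr5, the receptor that marks crypt base stem cells, fell by 1.59 ± 0.29 at day 7 (adjusted p = 0.00131). At day 2, when no member was called, no gene of the Paneth and stem cell lists was called either. Of 8 goblet cell genes 3 (Clca1, Fcgbp and Spink4) fell at day 7 and 1 (Clca1) at day 14, with list medians of 0.11 and 0.02, and of 6 tested tuft cell genes 1 (Dclk1) fell at day 7 and none at day 14, where 10.2% and 4.69% of all tested genes fell. No gene of the general epithelial (6) and immune (6) lists was called, and of 6 stromal genes Vim rose at day 7. Of 5 general EEC genes, each also in a list described below, 3 rose at day 7 and 4 at day 14, where 7.11% and 3.23% of all tested genes rose. The sums of these 5 were 31.8 to 34.4 CPM in WT and 46.1 to 53.1 CPM in KO at day 7. What part the fall of Paneth and stem cell transcripts had in the rise of the called members was not tested.

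**Figure D1:**
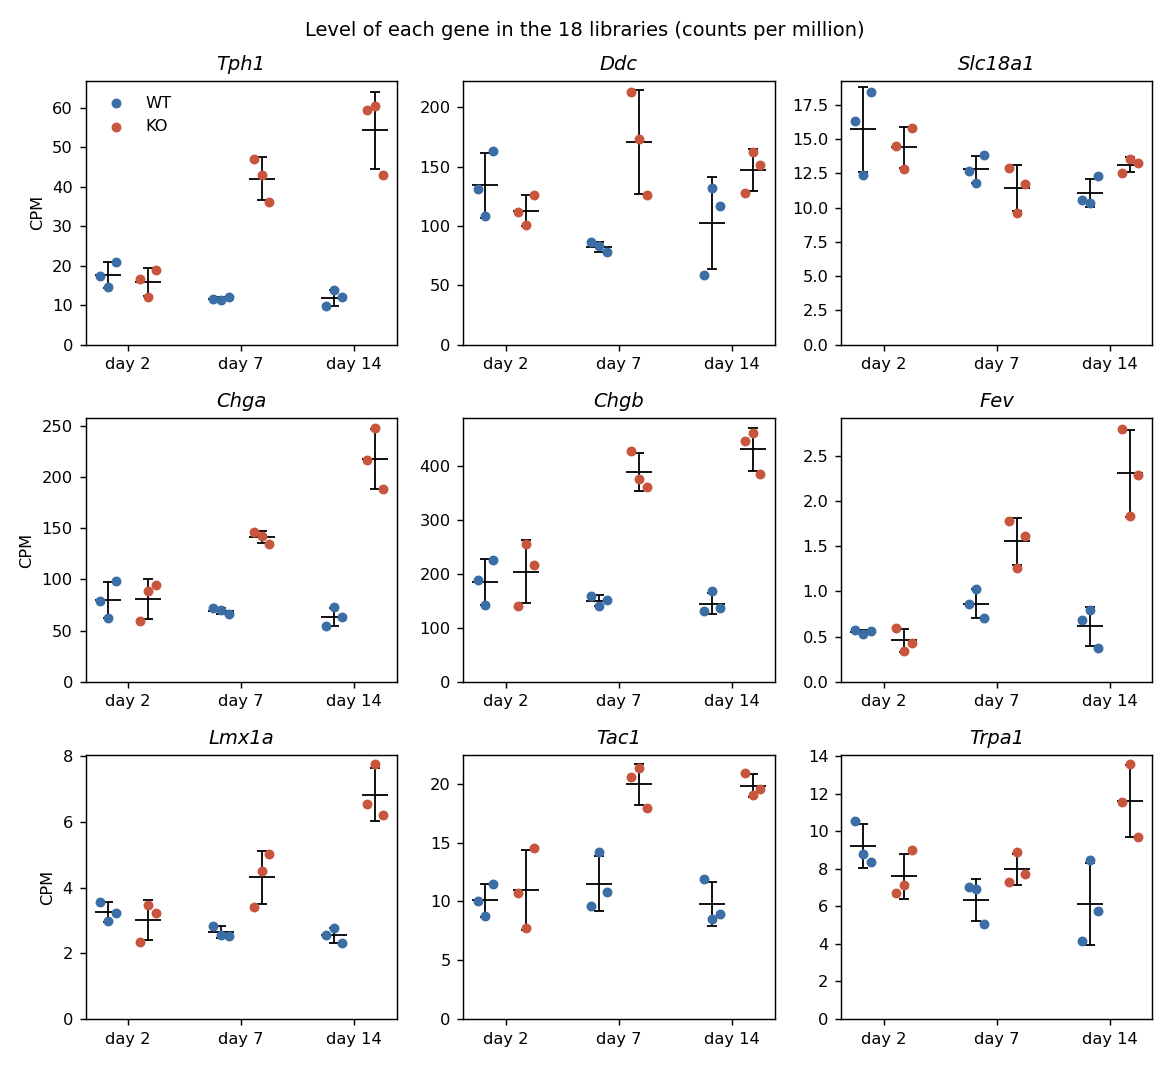
Level of each of the 9 genes in CPM (vertical axis, from 0) in WT (blue) and KO (red) libraries at days 2, 7 and 14. Each point is 1 library, and the bars give the mean and SD of 3. KO and WT points overlap at day 2 in every panel, and Tph1 at days 7 and 14 has every KO point at 36.2 CPM or more and every WT point at 13.9 CPM or less.

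Of the synthesis enzymes, Tph1, which catalyses the rate-limiting step, showed the largest change of the 9. WT libraries had 11.55, 11.4 and 12.2 CPM at day 7 and KO libraries 47.1, 43.0 and 36.2 CPM. At day 14 the WT values were 9.82, 13.9 and 12 CPM and the KO values 59.4, 60.6 and 43.0 CPM. The lowest KO library stood far above the highest WT library on both days. The log2 fold change was 1.85 ± 0.18 (SE) at day 7 and 2.18 ± 0.19 at day 14, that is 3.60-fold and 4.53-fold (edgeR's quasi-likelihood test, adjusted p = 2.00e-06 and 1.25e-06). At day 2 the levels had been 17.7 ± 3.24 CPM in WT and 15.9 ± 3.56 CPM in KO (SD, n = 3).

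Ddc, the decarboxylase that completes serotonin synthesis, rose at day 7 and did not pass the test at day 14. At day 7 WT libraries had 86.7, 83.0 and 78.3 CPM, and KO libraries had 213, 173 and 126 CPM. The groups did not overlap, but KO libraries were spread widely. The log2 fold change was 1.05 ± 0.24 (edgeR's quasi-likelihood test, adjusted p = 0.00483). At day 14 WT libraries had 58.4, 132 and 117 CPM and KO libraries 128, 162 and 152 CPM. WT replicate 1 was low and WT replicate 2 lay within the KO range. The log2 fold change there was 0.52 ± 0.24 (adjusted p = 0.202), and it was 0.25 (adjusted p = 0.543) without that low WT library. Within each replicate number of day 14, KO was above WT. At that day the same-numbered libraries deviated together. With the number as a block among the day 14 libraries, Ddc was at 0.60 ± 0.20 and missed the threshold (adjusted p = 0.07002), with 7 of 9 members called, where 3.69% of tested genes rose in that fit. With such a block at every day it passed (0.60 ± 0.16, adjusted p = 0.0287), with 8 of 9 called, where 4.53% rose. The other day 14 calls were the same in both fits.

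The summed level of enterocyte markers was also higher in the KO libraries of day 7, where Ddc rose. Summed over 9 enterocyte genes (Alpi, Fabp1, Fabp2, Apoa1, Apoa4, Lct, Sis, Slc5a1 and Treh), the level was 7772 to 10899.9 CPM in WT and 12589 to 19997 CPM in KO at day 7, and 3744 to 10872 CPM in WT and 9981 to 19674 CPM in KO at day 14. WT replicate 1 of day 14, lowest for Ddc, was also lowest for this sum, and KO replicate 1 of day 7, highest for Ddc, had the highest sum after WT replicate 3 of day 2. By the adjusted test 2 of these 9 genes (Fabp1 and Fabp2) rose and 1 (Lct) fell at day 7, and 1 (Sis) rose at day 14. Among all tested genes, 7.11% rose and 10.2% fell at day 7, and 3.23% rose at day 14. Within WT, the day 2 libraries had sums of 11526 to 26047 CPM and Ddc at 108 to 163 CPM. Within KO the sum and Ddc did not keep the same order, since KO replicate 2 of day 2, at 19568 CPM, had the lowest KO value of Ddc (100.6 CPM), and KO replicate 1 of day 14, with the smallest KO sum, had 128 CPM. Tph1 was likewise lowest and highest in the WT libraries with the smallest and largest sum, but it stayed at 9.82 to 21.02 CPM in all 9 WT libraries, against 36.2 CPM or more in every KO library of days 7 and 14. The part of enterocyte RNA in the Ddc difference was not tested.

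**Figure D2:**
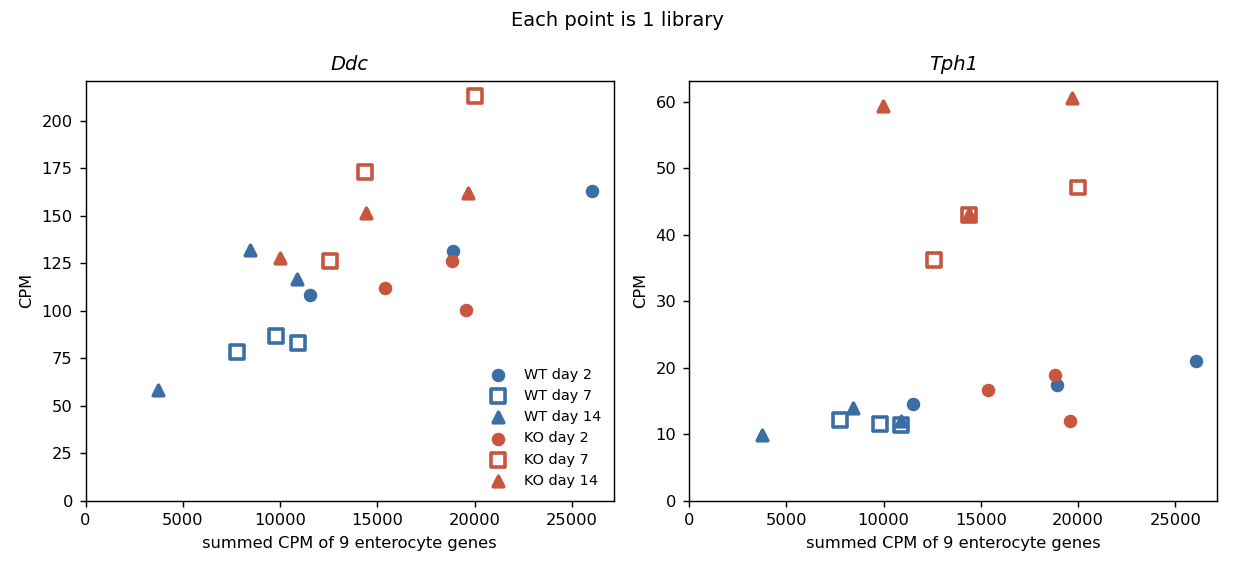
Ddc (left) and Tph1 (right) in CPM against the summed CPM of 9 enterocyte genes, with 1 point per library, WT in blue and KO in red, and a marker shape per day. Among WT libraries the smallest and largest sums go with the lowest and highest Ddc, while the KO library with the lowest Ddc has a sum of 19568 CPM. Tph1 separates the KO libraries of days 7 and 14, at 36.2 CPM or more, from all others, at 21.02 CPM or less.

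Slc18a1, the transporter that fills enterochromaffin granules with serotonin, did not pass the test on any day. At day 7 WT libraries had 12.7, 11.8 and 13.8 CPM and KO libraries 12.9, 9.58 and 11.7 CPM. At day 14 WT libraries had 10.6, 10.3 and 12.3 CPM and KO libraries 12.5, 13.6 and 13.3 CPM. The groups overlapped at day 7, and at day 14 the lowest KO library lay just above the highest WT library. The log2 fold changes were -0.17 ± 0.15 and 0.25 ± 0.16 (edgeR's quasi-likelihood test, adjusted p = 0.512 and 0.396). The gene shares its span with Gm15716 and Atp6v1b2 on the opposite strand, with no annotated exon in common. Atp6v1b2 had 25337 counts over all libraries. Counting ignored strand, so unspliced reads of these genes could add to the Slc18a1 count where they cross its exons, which was not tested. Ddc likewise shares its span with 1700042O10Rik on the opposite strand (1219 counts), without a common exon.

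The granins Chga and Chgb, acidic proteins that condense the cargo of secretory granules, rose on both days. Chga had 72.1, 70.1 and 66.2 CPM in WT and 147, 143 and 135 CPM in KO at day 7. It had 54.5, 72.6 and 63.2 CPM in WT and 217, 248 and 189 CPM in KO at day 14. The KO libraries of each day were well clear of the WT libraries, and the log2 fold change was 1.03 ± 0.18 at day 7 and 1.78 ± 0.18 at day 14 (edgeR's quasi-likelihood test, adjusted p = 0.000554 and 6.32e-06). Chgb was the most abundant of the 9 genes, with 150.3 ± 9.85 CPM in WT and 388 ± 35.4 CPM in KO at day 7. At day 14 the means were 145 ± 20.01 and 431 ± 40.0 CPM (SD, n = 3). Its log2 fold changes were 1.37 ± 0.20 and 1.57 ± 0.20 (adjusted p = 0.000105 and 6.14e-05).

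The transcription factors were the least abundant members. Fev, an ETS-domain factor of serotonin neurons and EECs, had 8 to 24 counts in the WT libraries of days 7 and 14 and 29 to 53 in the KO libraries. At day 7 it stood at 0.863, 1.02 and 0.701 CPM in WT and 1.78, 1.26 and 1.62 CPM in KO, a log2 difference of 0.85 ± 0.29 that did not pass the test (adjusted p = 0.0515, edgeR's quasi-likelihood test). At day 14 it had 0.680, 0.790 and 0.371 CPM in WT and 2.79, 1.83 and 2.29 CPM in KO. This rise of 1.91 ± 0.31 on the log2 scale passed (adjusted p = 0.000611). Lmx1a, a LIM-homeodomain factor, had 2.84, 2.56 and 2.54 CPM in WT and 3.42, 4.49 and 5.02 CPM in KO at day 7. At day 14 the WT values were 2.57, 2.76 and 2.32 CPM and the KO values 6.54, 7.76 and 6.21 CPM. No library of the other genotype lay within these ranges. Its log2 fold change was 0.70 ± 0.20 at day 7 (adjusted p = 0.0192) and 1.42 ± 0.20 at day 14 (adjusted p = 0.000200). The day 7 call did not pass without WT replicate 2 or 3 or KO replicate 2 or 3 (adjusted p = 0.0580, 0.0649, 0.0597 and 0.0574).

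Tac1, the substance P precursor, rose to about the same level on both days. WT libraries had 9.61, 14.2 and 10.8 CPM and KO libraries 20.6, 21.3 and 17.99 CPM at day 7. At day 14 WT libraries had 11.9, 8.49 and 8.94 CPM, and KO libraries had 20.9, 19.1 and 19.6 CPM. The KO values were tightly grouped. The log2 fold change was 0.80 ± 0.20 at day 7 and 1.03 ± 0.20 at day 14 (edgeR's quasi-likelihood test, adjusted p = 0.00777 and 0.00268), and without WT replicate 1 the day 7 adjusted p was 0.0501.

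Trpa1, the irritant sensor, passed the test at day 14 alone. At day 7 it stood at 7.02, 6.90 and 5.04 CPM in WT and 7.29, 8.88 and 7.73 CPM in KO, a log2 difference of 0.34 ± 0.22 (edgeR's quasi-likelihood test, adjusted p = 0.322). At day 14 WT libraries had 4.15, 8.49 and 5.75 CPM and KO libraries 11.5, 13.6 and 9.71 CPM. WT replicate 2 was high and came near the lowest KO library. The rise was 0.90 ± 0.22 on the log2 scale (adjusted p = 0.0139), and the call was lost without WT replicate 1, WT replicate 3 or KO replicate 2 (adjusted p = 0.0610, 0.0557 and 0.0680).

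**Figure D3:**
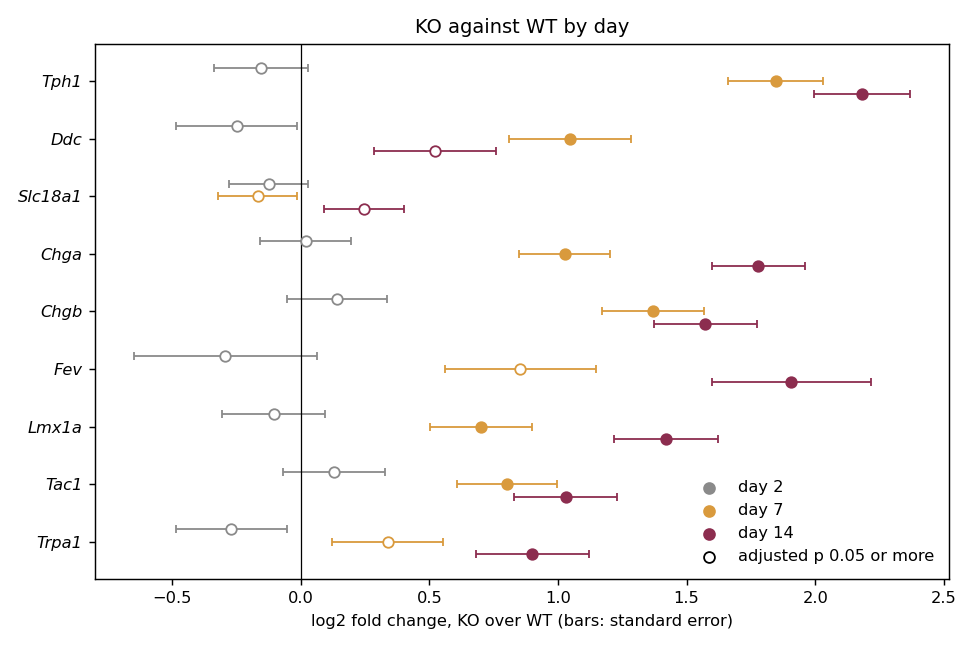
Log2 fold change of KO over WT (horizontal axis) with its standard error for the 9 genes at days 2, 7 and 14. Filled points have an adjusted p under 0.05 and open points do not. All 9 points of day 2 are open, and Tph1 lies farthest right, at 1.85 at day 7 and 2.18 at day 14.

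Whether the KO effect differed between days was tested as an interaction. Against day 2, the day 7 effect was larger for 4 of the 9 genes, where 1.33% of tested genes had a difference in that direction (4.37% in either). The differences on the log2 scale were 2.00 ± 0.26 for Tph1, 1.30 ± 0.33 for Ddc, 1.01 ± 0.25 for Chga and 1.23 ± 0.28 for Chgb (adjusted p = 0.000230, 0.0332, 0.0268 and 0.0155, edgeR's quasi-likelihood test). With 1 of the 12 libraries left out, Ddc passed only without WT replicate 2 or KO replicate 3 of day 2 or KO replicate 3 of day 7, and its adjusted p was otherwise up to 0.103. Chga passed only without one of these libraries or KO replicate 2 of day 2, and was otherwise up to 0.0679. The day 14 effect was larger than the day 2 effect for 5 genes, where 0.347% of tested genes had a difference in that direction (1.04% in either). These were Tph1 (2.34 ± 0.26), Chga (1.76 ± 0.25), Chgb (1.43 ± 0.28), Fev (2.20 ± 0.47) and Lmx1a (1.52 ± 0.28), with adjusted p of 0.000209, 0.00157, 0.0134, 0.0239 and 0.00987. The Fev difference missed the threshold without WT replicate 1 (adjusted p = 0.0714), KO replicate 2 (0.0576) or KO replicate 3 (0.0677) of day 2, WT replicate 3 of day 14 (0.0553) or KO replicate 1 of day 14 (0.0763). For Trpa1 the difference was 1.17 ± 0.31 (adjusted p = 0.0699), and it passed without WT replicate 2 of day 14 (adjusted p = 0.0172) and with the replicate number as a block among the day 14 libraries (adjusted p = 0.0307).

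Between days 14 and 7 no difference in effect passed the test for any of the 9 genes, nor for any other tested gene by edgeR's quasi-likelihood test. Unadjusted, 3 of the 9 members and 953 of all 21349 genes were under 0.05, and DESeq2's Wald test called 2 genes, none of them a member. The differences with an unadjusted p under 0.05 were 0.75 ± 0.25 for Chga, 1.05 ± 0.43 for Fev and 0.72 ± 0.28 for Lmx1a (adjusted p = 0.999 for each). So the apparent loss of the Ddc call and gain of the Fev and Trpa1 calls from day 7 to day 14 were not shown to be differences between these days.

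Within a genotype, none of the 9 genes differed between days in WT by edgeR's quasi-likelihood test. Against day 2, their WT log2 fold changes had a median of -0.30 at day 7 and -0.35 at day 14, against 0.01 over all tested genes. Only 2 and 1 of the 9 were positive. Tph1 was at -0.60 ± 0.18 and -0.56 ± 0.18 in WT (adjusted p = 0.0877 and 0.101). Its larger KO effect at these days thus holds a lower WT level beside a higher KO level. At an unadjusted p under 0.05 there were 3 members for day 7 against day 2, 3 for day 14 against day 2 and 0 for day 14 against day 7, against 4792, 4271 and 1105 of all 21349 genes, and DESeq2's Wald test called 2, 1 and 0. By edgeR's quasi-likelihood test, the shares of all tested genes called were 0.553%, 1.61% and 0.0796%. No such share is given here for DESeq2. In KO, Tph1 (1.40 ± 0.18), Chga (0.81 ± 0.18), Chgb (0.93 ± 0.20), Fev (1.76 ± 0.33) and Tac1 (0.85 ± 0.20) were higher at day 7 than at day 2 on the log2 scale, which is 5 of 9, where 7.21% of tested genes rose. At day 14 against day 2 the same genes and Lmx1a were higher, 6 of 9, where 5.54% of tested genes rose. The values were 1.77 ± 0.18 for Tph1, 1.43 ± 0.18 for Chga, 1.08 ± 0.20 for Chgb, 2.34 ± 0.32 for Fev, 0.84 ± 0.20 for Tac1 and 1.17 ± 0.20 for Lmx1a. Trpa1 missed the threshold there (adjusted p = 0.0768), and passed by DESeq2's Wald test (0.0442). No member differed between KO days 14 and 7 by this test, where 0.0468% of tested genes did. There, 5 members and 1978 of all 21349 genes had an unadjusted p under 0.05, and DESeq2's Wald test called 1 (Chga). These comparisons share libraries with those of KO against WT. Day 2 mice had also received fewer injections, so time and dose of tamoxifen cannot be told apart between day 2 and the later days.

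Compared per length (CPM per kilobase of annotated exons), the order of the 9 genes changed mainly through Tph1. In WT at day 14, Chgb was at 52.8 ± 7.30, Chga at 23.02 ± 3.28, Ddc at 22.9 ± 8.71, Tac1 at 2.88 ± 0.551, Slc18a1 at 2.05 ± 0.196, Tph1 at 1.93 ± 0.331, Trpa1 at 1.44 ± 0.514, Lmx1a at 0.751 ± 0.0660 and Fev at 0.379 ± 0.134 (SD, n = 3). The libraries of Chga and Ddc overlapped there, as did those of Slc18a1 and Tph1 and of Tph1 and Trpa1, and the other neighbours did not. In KO at day 14, Tph1 stood at 8.80 ± 1.59, above Tac1 at 5.84 ± 0.285, Trpa1 at 2.72 ± 0.452 and Slc18a1 at 2.43 ± 0.0976. Trpa1 and Slc18a1 overlapped with each other, and Tph1 overlapped with neither neighbour. Chgb, Chga and Ddc kept the first 3 places in all 6 groups, and Lmx1a and Fev the last 2.

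To see how unevenly the members moved, each was expressed relative to Chga within the same library, as log2 CPM (prior count 2) of the gene minus that of Chga. Because Chga itself rose, 81.1% of all tested genes had every KO library below every WT library on this scale at day 7 and 93.0% at day 14, with medians of -1.01 and -1.77. Tph1 went the other way. Its values were -2.63, -2.61 and -2.43 in WT and -1.64, -1.73 and -1.89 in KO at day 7, a difference of 0.81, and only 0.848% of tested genes had all KO above all WT libraries. At day 14 the WT values were -2.46, -2.38 and -2.39 and the KO values -1.87, -2.03 and -2.13, a difference of 0.40, where 0.108% of tested genes stood in that position. Chgb was above WT relative to Chga at day 7 by 0.34 and below it at day 14 by -0.20, without overlap on either day.

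Slc18a1 was lower relative to Chga by -1.20 at day 7 and -1.53 at day 14, and Trpa1 by -0.68 and -0.82, with no overlap of KO and WT. Such a position was the common one, held by 81.1% and 93.0% of all tested genes. The Slc18a1 values are near the medians of -1.01 and -1.77 over all tested genes. Ddc differed from WT by -0.01 at day 7, with overlap, and by -1.18 at day 14, without. Tac1 and Lmx1a differed by -0.22 and -0.35 at day 7, with overlap, and by -0.75 and -0.39 at day 14, without. Fev differed by -0.24 and 0.01, overlapping on both days. At day 2 KO and WT overlapped for all 8 genes, where 1.41% of tested genes had all KO above and 1.08% all below all WT libraries. The exact permutation p was 0.1, the smallest possible, for each gene that did not overlap.

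**Figure D4:**
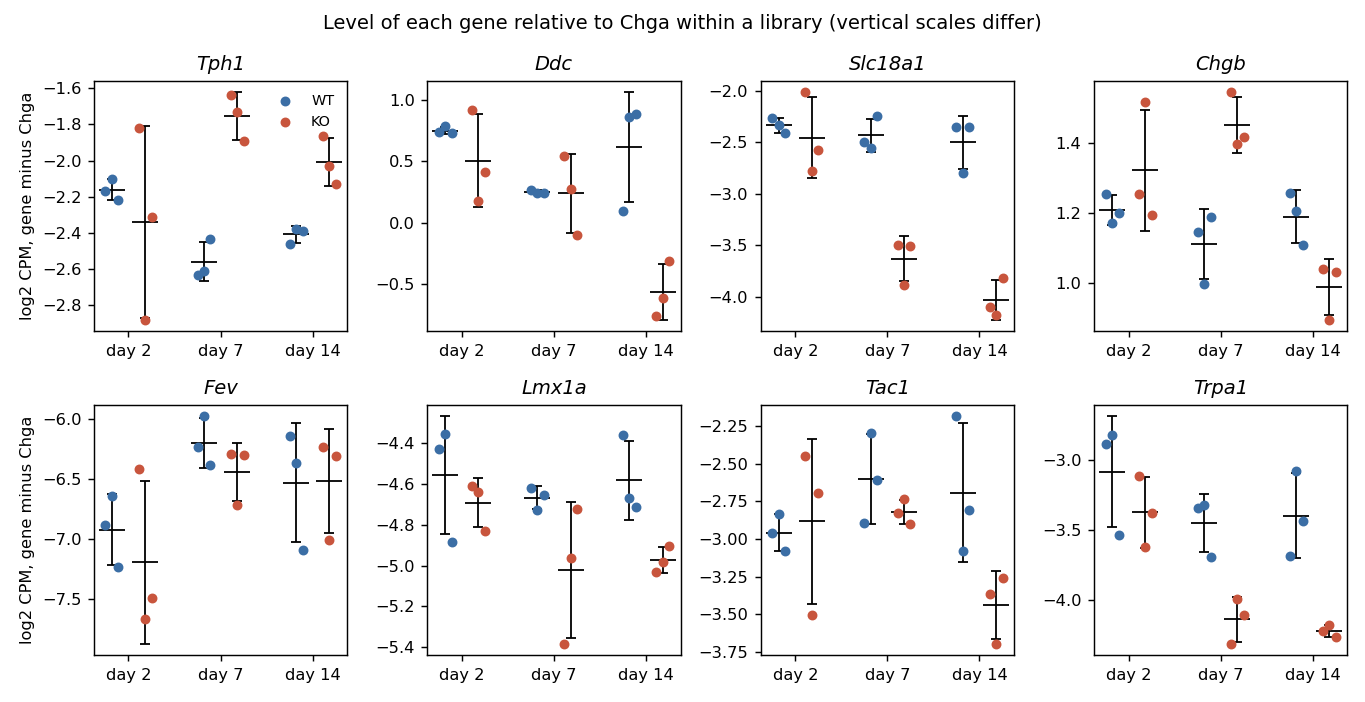
Log2 CPM of 8 genes minus that of Chga in the same library (vertical axis, scales differ between panels) for WT (blue) and KO (red), with the mean and SD of 3 libraries. Tph1 is higher in KO at days 7 and 14 by 0.81 and 0.40, Slc18a1 lower by -1.20 and -1.53, and Fev overlaps throughout. The medians over all tested genes on this scale are -1.01 and -1.77 at these days.

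Beyond the members, 14 of 16 other genes of serotonin metabolism were tested. At day 7, 1 rose and 2 fell, and at day 14, 1 rose and 1 fell, with medians of 0.06 and -0.09 on the log2 scale. These shares are near those of all tested genes. Pts, an enzyme that makes tetrahydrobiopterin, the cofactor of tryptophan hydroxylase, fell by 1.63 ± 0.14 at day 7 and by 1.22 ± 0.14 at day 14 (edgeR's quasi-likelihood test, adjusted p = 2.98e-07 and 1.91e-05). Its level was 34.9 CPM in WT against 11.3 in KO at day 7, and 28.6 against 12.3 at day 14. The other cofactor genes Gch1, Spr, Qdpr and Pcbd1 had log2 fold changes between -0.18 and 0.23 on these days, none past the test. Slc6a4, the serotonin reuptake transporter of the epithelium, fell by 0.72 ± 0.19 at day 7 (adjusted p = 0.0131), with 63.2 CPM in WT and 38.4 in KO, and was at -0.36 ± 0.19 at day 14 (adjusted p = 0.291). Slc18a2, the other vesicular monoamine transporter, was at 0.44 ± 0.18 at day 7 (adjusted p = 0.0934) and rose by 0.66 ± 0.18 at day 14 (adjusted p = 0.0268). Ido1, which diverts tryptophan to the kynurenine pathway, rose by 1.50 ± 0.48 at day 7 (adjusted p = 0.0421) and was at -0.40 ± 0.50 at day 14. The breakdown enzymes Maoa (0.68 and 0.54) and Maob (-0.16 and 0.01) did not pass. Of 14 serotonin receptor genes 3 could be tested (Htr1b, Htr2b and Htr4), and none was called.

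**Figure D5:**
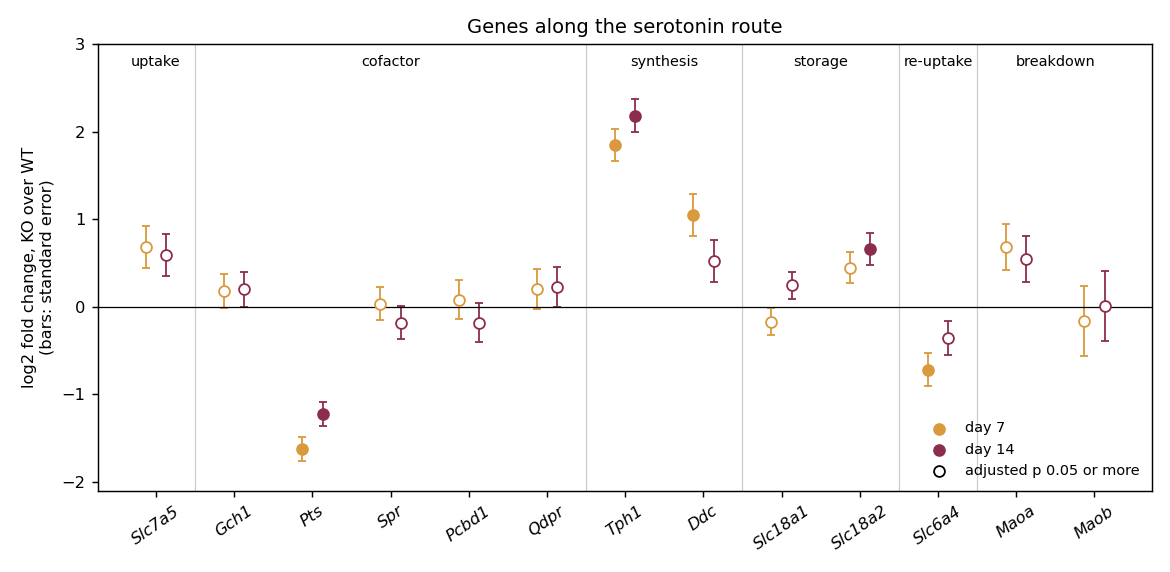
Log2 fold change of KO over WT with its standard error (vertical axis) at days 7 and 14 for 13 genes along the serotonin route, from tryptophan uptake to breakdown. Filled points have an adjusted p under 0.05. Tph1 is highest at 1.85 and 2.18, and Pts lowest at -1.63 and -1.22.

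Of 13 further genes that mark or equip enterochromaffin cells, 3 rose and 2 fell at day 7, and 4 rose and 1 fell at day 14 (median 0.22 and 0.70). Of all tested genes, 7.11% rose at day 7 and 3.23% at day 14, while 10.2% and 4.69% fell. The shares of the 13 that fell were near those of all tested genes. Scn3a, a voltage-gated sodium channel subunit, rose by 0.47 ± 0.15 at day 7 and 1.42 ± 0.16 at day 14 (edgeR's quasi-likelihood test, adjusted p = 0.0384 and 1.48e-05). Ucn3, a peptide of the urocortin family, rose by 1.00 ± 0.30 and 1.53 ± 0.29 (adjusted p = 0.0257 and 0.00222). Olfr558, an odorant receptor that detects short-chain fatty acids, had 0 to 3 counts per library in WT and 16 to 40 in KO over both days, which is at least 7.41-fold higher at day 7 and at least 9.60-fold at day 14 against 3 counts per library. Adgrg4, an adhesion receptor, was at 0.51 ± 0.21 at day 7 (adjusted p = 0.107) and rose by 0.83 ± 0.21 at day 14 (adjusted p = 0.0187). Adra2a, a receptor for catecholamines, fell by 1.77 ± 0.28 at day 7 and by 0.95 ± 0.28 at day 14 (adjusted p = 0.000327 and 0.0424). Mnx1, a homeodomain factor, fell by 0.91 ± 0.25 at day 7 (adjusted p = 0.0151) and was at -0.08 ± 0.24 at day 14.

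Other granins and granule enzymes moved mostly upward. Of 7 tested among 8, 4 rose and 1 fell at day 7, and 5 rose and none fell at day 14 (median 0.46 and 0.99). Over all tested genes, 7.11% rose and 10.2% fell at day 7, and 3.23% rose and 4.69% fell at day 14. The 1 of 7 that fell at day 7 is near the share of all tested genes. Scg2, a granin, rose by 1.53 ± 0.24 and 1.10 ± 0.24, and Vgf, another, by 2.01 ± 0.40 and 2.50 ± 0.42. The prohormone-processing enzymes Pcsk1 (0.42 ± 0.14 and 0.83 ± 0.14) and Cpe (1.07 ± 0.17 and 0.99 ± 0.17) also rose on both days. Pcsk1n, an inhibitor of Pcsk1, rose at day 14 (1.64 ± 0.47), and Scg5, a chaperone of the related convertase Pcsk2, fell at day 7 (-1.39 ± 0.37). The adjusted p of these calls by edgeR's quasi-likelihood test lay between 0.000198 and 0.0459.

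Among 20 transcription factors of EEC or serotonergic cells, 17 were tested, of which 5 rose and 1 (Foxa2) fell at day 7, and 10 rose and none fell at day 14 (median 0.57 and 0.92). The shares of all tested genes were 7.11% and 10.2% at day 7, and 3.23% and 4.69% at day 14. The 1 of 17 that fell is not above that share. Part of this list was named by the study from the day 14 libraries, so its direction there is not independent evidence. Neurog3, which commits progenitors to the EEC lineage, rose by 1.04 ± 0.23 at day 7 and 1.17 ± 0.23 at day 14. Its downstream partner Neurod1 rose by 1.20 ± 0.21 and 1.29 ± 0.21. Pax4 (0.85 ± 0.27 and 1.85 ± 0.27), Pax6 (1.12 ± 0.23 and 1.41 ± 0.23) and Insm1 (1.04 ± 0.22 and 1.36 ± 0.22) also rose on both days. Rfx6, Glis3 and Myt1 rose at day 14 by 0.92 ± 0.20, 1.25 ± 0.26 and 1.06 ± 0.19. Gata2, Gata3 and Lmx1b, used by serotonin neurons of the brain, had too few counts to be tested.

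Hormone genes of other EEC types rose too, and the study names several of them from the same day 14 libraries, so their direction there is not independent evidence. Of 9 tested among 11, 6 rose and 1 fell at day 7, and 5 rose and 1 fell at day 14 (median 1.08 and 0.98). All tested genes rose at 7.11% and fell at 10.2% at day 7, and rose at 3.23% and fell at 4.69% at day 14. The 1 of 9 hormone genes that fell at day 7 is near that share. Pyy had the largest change, 2.48 ± 0.40 and 1.98 ± 0.40, and Cck (1.38 ± 0.22 and 1.33 ± 0.23), Gip (0.94 ± 0.19 and 1.26 ± 0.19), Gcg (1.27 ± 0.20 and 0.98 ± 0.20) and Sct (1.52 ± 0.32 and 1.13 ± 0.32) rose on both days. Nts rose at day 7 (1.08 ± 0.33). Ghrl, the hormone of X cells, fell by 0.67 ± 0.17 at day 7 and by 0.90 ± 0.17 at day 14 (edgeR's quasi-likelihood test, adjusted p = 0.00876 and 0.00246). Of 9 tested Trp channels other than Trpa1, 1 rose and 3 fell at day 7 and 2 rose at day 14, and the 1 of 9 that rose at day 7 is near the share of all tested genes. Trpc1 rose on both days (1.92 ± 0.38 and 1.48 ± 0.39), Trpm2 rose at day 14 (1.25 ± 0.25), and Trpm4 (-0.56 ± 0.15), Trpm6 (-1.12 ± 0.35) and Trpv4 (-2.07 ± 0.56) fell at day 7.

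Mast cells and enteric neurons can also hold serotonin or Tac1 transcripts. Of 12 mast cell genes, 7 stayed under 1 CPM in the mean of every group, among them Cpa3, Fcer1a and Ms4a2, and Tpsab1 was at 0 in all 18 libraries. The mast cell list summed to 54.8 to 58.3 CPM in WT and 41.1 to 57.5 CPM in KO at day 7, and to 51.4 to 76.0 and 57.7 to 78.5 CPM at day 14, with most of it from Kit and Slc18a2, which are not confined to mast cells. Kit fell at day 7 (-0.53 ± 0.18, edgeR's quasi-likelihood test, adjusted p = 0.0457), and Slc18a2 rose at day 14 with the values given above, so 1 of 5 tested mast cell genes was called on each day. Of 12 enteric neuron genes, 10 stayed under 1 CPM, Calb2 had 1 count over all libraries, and Tph2, the neuronal hydroxylase, had 18. That list summed to 5.11 to 7.49 CPM in WT and 10.1 to 14.1 CPM in KO at day 7, and to 5.29 to 8.84 and 10.9 to 13.2 CPM at day 14. Of 5 tested genes in it, 2 rose at day 7 and 2 at day 14, with medians of 1.04 and 1.05 on the log2 scale. Over all tested genes 7.11% and 3.23% rose. The genes in it that rose were Ret and Snap25, which EECs also express. The part of mast cells and neurons in the rise of the members was not tested.

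Over the 18 libraries, the genes whose log2 CPM, centred on the 9 WT libraries, lay nearest to that of Tph1 among 17069 genes were 5730419F03Rik, Ppfia3, Gm17056, Cck and Cdkn1c, with mean absolute differences of 0.28, 0.28, 0.30, 0.31 and 0.31. For comparison, the median over all ranked genes was 0.83, and Chgb and Chga, left out of the ranking as members, were at 0.29 and 0.30. Nearest to Chga were Gfra3, Hsd3b2, Ucn3, Zfp768 and Cck, at 0.21, 0.21, 0.23, 0.24 and 0.24, against a median of 0.63. Among the members Chgb (0.13) and Lmx1a (0.22) lay closest to Chga, and Slc18a1 (0.58) farthest. These distances describe the shape over libraries that share 2 genotypes and 3 days, and carry no test.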

How the data were processed

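RNA-Seq counts of 18 libraries of small intestinal crypts, 3 per genotype and day and 1 per mouse, were used. The deposited table holds raw counts, 1 row per gene, which the authors made from STAR 2.7.3 alignments (mm10) of 100-base paired reads with featureCounts 1.6.4. HTSeq is also named in the submitters' processing notes. The file header names GENCODE release M23 and the methods a later release. Strand was not used, a fragment over more than 1 gene added to the count of every such gene, and multi-mapping fragments were not counted. Columns of per-sample values left unused numbered 0.

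The 20 genes that the study tied to sex were left out before filtering (filterByExpr of edgeR 4.0.16 by group, 21349 genes left) and TMM normalization. Sex is not in the labels used here and was not taken into account. The model had 1 mean per group and was tested by glmQLFTest of edgeR with the robust option (R 4.3.3 and limma 3.58.1), with p-values adjusted by Benjamini-Hochberg over all tested genes with a threshold of 0.05. There were 12 comparisons: KO against WT by day, differences between these effects, and days within a genotype. Values in CPM use TMM library sizes. Exact tests are two-sided permutation tests. Deviations from group means of same-numbered KO and WT libraries correlated at 0.16 to 0.23 in the 3 pairs of day 14. Over all 9 pairs they correlated at -0.16 to 0.38, and over 0.1 in 6. Differently numbered pairs of day 14 were all negative. Deviations cancel out within a group, so on balance that sign follows from the positive same-numbered values and adds no support. The numbers were taken to pair libraries at day 14 alone, as a hint from the data, since the labels do not say what a number marks. They were entered as a block there in an alternative fit, beside one with a block at every day. The scripts were tested on simulated data, and Python 3.11.15 with numpy 2.4.6, pandas 2.3.3 and matplotlib 3.10.9 made tables and plots. Total counts were 12844642 to 31493484 per library, and members had 6 or more counts in every library. Fev, with 6 to 53 counts, carries the largest counting error.

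The members and lists were chosen with earlier results of these data known, and a few genes of these lists were left out of them and are not reported here. Named are all 9 members, the genes of each list called at day 7 or 14 (at most 8 per list, by day 14 p), Prmt1, and the 5 profiles nearest to Tph1 and to Chga among tested genes with a mean of at least 1 CPM. Gch1, Spr, Qdpr, Pcbd1, Maoa, Maob, Foxa2 and the untested factors and receptors were named after their values were seen, to complete the counts. Enterocyte genes that were not called are named to define their sum. Cpa3, Fcer1a, Ms4a2, Tpsab1, Calb2 and Tph2 are named for their low counts. Alternatives were DESeq2 1.42.0, its size factors, the 20 most abundant genes left out, no filter, a mean count of at least 50, the sex genes kept, a block for the replicate number, fits to the compared groups alone, CPM by total count, a prior count of 0.5, and each library left out.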

Additional observations from a re-analysis of the deposited data

Results flagged for a closer look

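The difference between KO and WT itself differed between days 14 and 2 for 5 of the 9 genes, and between days 7 and 2 for 4, by edgeR's quasi-likelihood test of the interaction with a threshold of 0.05. Over all tested genes, 0.347% and 1.33% had a difference in that direction. With 1 library left out, Ddc and Chga passed for days 7 and 2 in only 3 and 4 of 12 fits. Fev passed for days 14 and 2 in 7 of 12. On the log2 scale the KO effect was larger at day 7 than at day 2 by 2.00 for Tph1, 1.30 for Ddc, 1.01 for Chga and 1.23 for Chgb. It was larger at day 14 than at day 2 by 2.34 for Tph1, 1.76 for Chga, 1.43 for Chgb, 2.20 for Fev and 1.52 for Lmx1a. The same day 2 libraries enter both sets of differences, and day 2 mice had received 2 tamoxifen injections against 5 for the later days. No group of 3 libraries was examined for single outlying samples, since groups of that size are too small for the test used.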

How the results depend on the processing

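For KO against WT at days 7 and 14, every call of Tph1, Ddc, Chga and Chgb at day 7 and of Tph1, Chga, Chgb, Fev, Lmx1a and Tac1 at day 14 was kept under every alternative that could be run. Fev could not be run with a mean count of at least 50. Lmx1a at day 7 missed the threshold with no filter on low counts and with only the groups compared (adjusted p = 0.0712 and 0.0664), and Trpa1 at day 14 with only the groups compared (0.0583). The interaction of genotype with days 14 and 2 missed it for Fev with only the groups compared (0.0537), and passed it for Trpa1 with no filter (0.0105) and DESeq2 (0.0166) and for Tac1 with no filter (0.0414). The count of members whose effect differed between days 7 and 2 was 2 to 4 with single libraries left out, against 4. The count for WT days 7 and 2 was 0 and became 1 with no filter (Tph1), 1 with only the groups compared (Ddc) and 2 with DESeq2 (both). That for WT days 14 and 2 was 0 and became 1 with no filter (Tph1), 1 with DESeq2 (Slc18a1), and 0 to 1 with single libraries left out (Slc18a1 without WT replicate 2 of day 2, Trpa1 without WT replicate 2 of day 14). For KO days 7 and 2, where 5 members were called, 2 more passed edgeR's test with single libraries left out. These were Ddc without KO replicate 3 of day 7 (adjusted p = 0.0345) and Lmx1a without KO replicate 1 of day 7 (0.0457). For KO days 14 and 2, where 6 members were called, Trpa1 passed in addition with only the groups compared (adjusted p = 0.0396), with DESeq2 (0.0442) and with a mean count of at least 50 (0.0453). The count for KO days 14 and 7 was 0 and became 1 with no filter and 1 with DESeq2 (Chga). The cause was not tested. The ratio of Chga in KO to WT at day 7 was 2.04 and 1.83 by CPM of total counts. Over leave-one-out fits at day 2, log2 fold changes changed sign for Tph1 (-0.31 to 0.014), Chga (-0.13 to 0.20), Chgb (-0.047 to 0.35), Lmx1a (-0.21 to 0.042) and Tac1 (-0.13 to 0.33), and so did the Slc18a1 difference between days 7 and 2 (-0.15 to 0.10). None of these passed a test. With the replicate block over all days 6 members were called at day 7 and 7 at day 14. With a block among the day 14 libraries alone, chosen after seeing the data, as was the next, they were also 6 and 7. With a replicate block within each day the counts were 6 and 8 (Ddc added), and the interaction of genotype with days 14 and 2 also passed for Trpa1 and Tac1 (adjusted p = 0.0361 for both). Over all tested genes, the counts called moved by more than 1.5 times at day 2 (7, and 2 to 16), for the interaction with days 7 and 2 (934, and 1402 with DESeq2), with days 14 and 2 (223, and 433 with no filter, 353 with the block within each day and 509 with DESeq2) and with days 14 and 7 (0, and 2, 1 and 2 under the same settings). Fev, at 6 to 53 counts, is the member that depth limits most.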
